A study of Drosophila melanogaster with 66 samples.

Results

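The 6 genes described here, cad, Ptx1, not, Prat2, Rexo5 and CG1354, lie under or nearest to strong binding sites of CLAMP in the early Drosophila melanogaster embryo. They were chosen from 17872 genes of the dm6 table. Each stands at a region of the male 2-4 h CLAMP peak list that regions of all 10 CLAMP lists overlap, by at least 1 bp, and that ranked high there by fold enrichment, the ratio of signal to local background that the authors' peak caller gave. Of the 10466 regions of that list, 57 (0.545%) met the overlap criterion. The CLAMP lists, and the male 2-4 h fold above all, therefore chose these genes, and CLAMP values are given as a description with no test. H4K16ac and MSL3 were not used in the choice.

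Chromatin immunoprecipitation and sequencing was done in 66 samples of sexed embryos. Antibodies were to CLAMP (16 samples), to H4K16ac (10) and, in males, to MSL3 (8), and the rest were IgG (16) and input (16). Embryos of both sexes had yw mothers that carried PCNA-EGFP at attP2. Fathers of male embryos carried the 19-3, yw, Rsp[s]-B[s] chromosome over Y, and fathers of female embryos carried + over the Dp(2:y) CB25-4 duplication, marked y+ and Rsp[s]B[s]. All fathers carried SPSD over SD72, a pair that drives one class of sperm, so the sexes differ in paternal genotype as well as in sex. The groups used were male and female CLAMP, male and female H4K16ac, and male MSL3, each at nuclear cycles 11, 12, 13 and 14 and at 2 to 4 h. Embryos were staged by hand under GFP light and pooled, 200 to a sample at cycles 11 to 14. For 2-4 h embryos the labels state no nuclear cycle. IgG and input samples were not analysed here.

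CLAMP is a zinc finger protein, supplied by the mother, that recognises GA-rich DNA and helps to open chromatin when the zygotic genome is switched on. On the male X it also helps to recruit the male-specific lethal (MSL) complex. MSL3 is the chromodomain subunit of that complex, and acetylation of histone H4 at lysine 16 (H4K16ac) is the mark that its enzyme MOF writes. The 6 genes belong to no common pathway. cad encodes Caudal, the homeodomain protein that patterns the posterior of the embryo, and Ptx1 encodes a paired-class homeodomain protein. not (non-stop) encodes the deubiquitinating enzyme of SAGA, which removes ubiquitin from histone H2B. Prat2 encodes the amidotransferase that starts purine synthesis, and Rexo5 an RNA exonuclease that trims ribosomal and small nucleolar RNAs. CG1354 is a protein-coding gene and the X-linked member of the group.

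Each combination of target, stage and sex had 1 peak list, so values carry no replicate error, and read depth was unknown. The lists of male cycle 13 CLAMP and of male cycle 12 and 13 MSL3 are filed under the second replicate and the others are not, so differences between stages and between replicates cannot be told apart. The CLAMP lists held between 133 regions (male cycle 11) and 10466 (male 2-4 h), and the folds have no scaling between lists. All 6 sites were overlapped in every list by choice. Of all male 2-4 h regions, the other male lists overlapped 0.965% (cycle 11), 5.33% (cycle 12), 40.6% (cycle 13) and 18.2% (cycle 14). The female lists overlapped 45.8% (cycle 11), 15.3% (cycle 12), 33.1% (cycle 13), 4.57% (cycle 14) and 92% (2-4 h). The male cycle 14 list stands apart, since with 8393 regions it overlapped fewer than male cycle 13 with 4959. Values that rest on that list are named as such.

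The sites at CG1354, not, cad and Ptx1 lay across the lower-coordinate end of their gene; the gene table gives no strand, so a start and an end cannot be told apart. The CG1354 region spanned X 9778428 to 9778998 (dm6), and its summit, the base of highest signal, lay 52 bp outside the gene (9778742 to 9782094). The not region on 3L, 18617987 to 18618495, also had its summit 52 bp outside the gene (18618305 to 18622129). It covered the transfer RNA gene tRNA:Pro-CGG-2-3 (18618390 to 18618461) as well, whose nearer end was 137 bp from the summit. The cad region on 2L, 20770287 to 20770913, had its summit 148 bp outside cad (20770731 to 20783135). The Ptx1 region on 3R, 30912233 to 30912908, had its summit 181 bp outside Ptx1 (30912754 to 30930682).

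The other two sites were placed differently. The Rexo5 region on 3L, 6605785 to 6606376, lay inside Rexo5 (6603684 to 6608739), with its summit 2413 bp from the nearer end. It also crossed an end of zpg (6604366 to 6606032), which encodes a germline gap junction protein and lies within the Rexo5 interval, and the summit was 65 bp from that end. The table alone cannot assign this site to Rexo5 or zpg. The Prat2 region on 3L, 6903875 to 6904524, overlapped no annotated gene and lay 7475 bp from Prat2 (6911999 to 6914876), the nearest one. None of the 10 CLAMP lists had a region within 1 kb of Prat2, so it is the gene beside a shared site and not a gene at one. Of the 57 shared regions 28 (49.1%) held an end of an annotated gene, beside 44.8% of all male 2-4 h regions, a share near that background.

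Among the 57 regions, Rexo5 had the highest male 2-4 h fold (29.7), followed by Prat2 (27.1), Ptx1 (25.4), CG1354 (25.0), cad (24.4) and not (23.4). One further region with a fold above that of not, 26.6, lay nearest to lncRNA:CR43302 and is no member. Just below not came the regions at lncRNA:CR45297 (23.3), grn (22.7) and vg (22.6). In the list as a whole 36 regions had a fold of 23.4 or more, and those at the 6 genes ranked 5, 11, 18, 22, 27 and 36. The 3 strongest regions that 9 of 10 lists overlapped lay over Abd-B (27.5), ssp3 (27.0) and B-H1 (26.9), and all 3 were missing from male cycle 11. Of 209 regions overlapped by 9 lists, 196 were missing from male cycle 11, so the shortest list largely set which sites counted as shared.

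At cad, the Caudal gene, the region had folds of 7.68, 16.9, 13.2, 17.1 and 24.4 in males at cycles 11, 12, 13, 14 and 2-4 h. In females the folds at cad were 13.6, 24.3, 22.7, 12.4 and 20.4 in the same order. The cad region was among the strongest in even the shortest lists, at rank 6 of 133 at male cycle 11, 3 of 604 at male cycle 12, 3 of 1811 at female cycle 12 and 3 of 529 at female cycle 14.

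At Ptx1 the male folds were 4.79, 8.74, 12.1, 40.3 and 25.4 in stage order. The female folds at Ptx1 were 18.5, 17.8, 29.7, 7.85 and 20.7. The male cycle 14 value stands far above the other male ones, at rank 3 of 8393, and without that list the highest fold at Ptx1 was 29.7, at female cycle 13. Ptx1 also ranked 3 of 5462 at female cycle 11, beside 44 of 133 at male cycle 11.

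At not, the SAGA protease gene, the male folds were 5.81, 9.17, 9.10, 5.48 and 23.4 in stage order. The female folds at not were 15.3, 15.3, 22.0, 5.32 and 19.1. Both sexes were lowest at cycle 14, where the region ranked 2917 of 8393 in males and 111 of 529 in females. At the other 3 cycles the female fold was the higher one.

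At the Prat2 site the male folds were 6.40, 11.8, 12.0, 27.2 and 27.1 in stage order. The female folds there were 11.7, 15.6, 22.4, 8.28 and 23.2. As at Ptx1, the male cycle 14 fold was on a level with or above the 2-4 h one, while the female cycle 14 fold was the lowest of its sex. The female cycle 14 fold was the lowest of its sex at cad, not and Rexo5 too. So was the female cycle 14 median of the 57 shared regions (5.81). Divided by the median of its list, the Prat2 site was lowest among females at cycle 11 (1.04), beside 1.42 at cycle 14. Without male cycle 14, the highest fold at the Prat2 site was 27.1, at male 2-4 h.

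At Rexo5 the male folds were 3.23, 6.01, 10.8, 9.90 and 29.7 in stage order. The female folds at Rexo5 were 12.8, 10.7, 14.1, 7.67 and 23.8. This was the weakest of the 6 sites early in males, at rank 119 of 133 at cycle 11 and 169 of 604 at cycle 12, and it ranked 5 of 10466 at male 2-4 h and 7 of 10435 at female 2-4 h. At male cycle 11 it had a −log10 q of 3.72, where the lowest in that list was 2.00.

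At CG1354, the X-linked gene, the male folds were 4.21, 8.13, 13.9, 22.6 and 25.0 in stage order, higher at each stage than at the one before, also with male cycle 14 left out. The female folds at CG1354 were 14.1, 8.12, 16.6, 9.90 and 20.9, with no such order. The cycle 12 values were nearly equal in the sexes. The male series also runs from the shortest list to the longest, so stage and list length cannot be told apart. Nor was the rise particular to CG1354. In males the median fold of the 57 shared regions rose at each stage as well (4.78, 8.47, 10.7, 11.8 and 14.1). Divided by that median, CG1354 had 1.92 at male cycle 14 and 1.78 at male 2-4 h. With male cycle 14 left out, the male folds at Ptx1, the Prat2 site and Rexo5 also rose at each step.

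**Figure D1:**
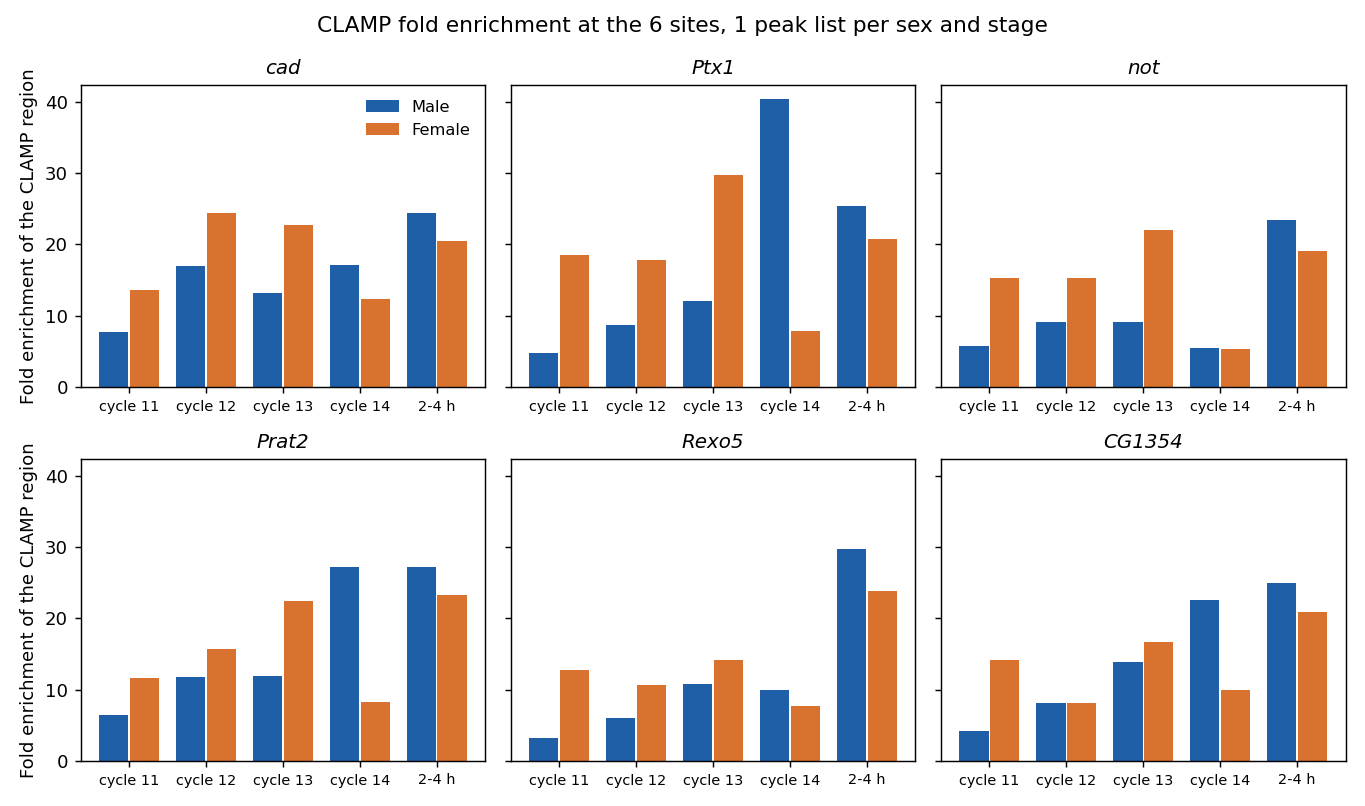
Fold enrichment of the CLAMP region at the 6 sites (vertical axis, linear, from 0), by stage (horizontal axis), with males in blue left of females in orange and 1 peak list behind each bar. At cycle 11 the male bar is the lower one at all 6 sites, but the folds share no scale between lists. The median of the 57 shared regions at that stage was also lower in males, 4.78 beside 11.2. Divided by it, cad (1.61 beside 1.21) and Prat2 (1.34 beside 1.04) were higher in males and the other 4 sites in females. At cycle 14 the male bar at Ptx1 reaches 40.3 beside 7.85 in females.

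Because the folds of different lists share no scale, each was also divided by the median fold of the 57 shared regions in its own list. That median was 4.78, 8.47, 10.7, 11.8 and 14.1 in males in stage order and 11.2, 10.7, 14.0, 5.81 and 12.2 in females. cad, Ptx1 and the Prat2 site were above the median of their list in all 10 lists, CG1354 and not in 7, and Rexo5 in 6. This was not particular to the members. The shared regions at oc, trh, lncRNA:CR45297 and lncRNA:CR45899 were also above the median in all 10 lists. At male cycle 11 Ptx1 was barely above it, at rank 27 of the 57 regions. cad ranged from 1.21 to 2.28 times the median and Ptx1 from 1.00 to 3.43 times. Rexo5 ranged from 0.676 to 2.11 times, and among the 57 regions its rank ran from 54 at male cycle 11 to 1 in both 2-4 h lists. not had the lowest value of any member in any list, 0.465 times the median at male cycle 14. Without that list the lowest was 0.676 times, at Rexo5, not went down to 0.848 times and the highest at Ptx1 was 2.12 times. cad, Ptx1 and the Prat2 site were then above the median in all 9 lists left, not in 7, and CG1354 and Rexo5 in 6.

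On this relative scale males were higher than females at 2, 1, 1, 3 and 6 of the 6 sites in stage order, beside 62.7, 41.2, 45.1, 43.1 and 52.9% of the other 51 regions. The 2-4 h count follows from the choice by male 2-4 h fold and is not a result. At 2-4 h the log2 ratio of male to female relative fold lay between 0.015 (Prat2) and 0.11 (Rexo5), inside the range of the other 51 regions, −0.26 to 0.32. The largest difference was at Ptx1 at cycle 14, where the relative fold was 3.43 in males and 1.35 in females, a log2 ratio of 1.34; the other 51 regions ran from −1.22 to 1.55. not had the lowest, −0.98 at cycle 14 (0.465 in males and 0.916 in females), followed by Ptx1 at cycle 13, −0.91 (1.13 in males and 2.12 in females). Without male cycle 14, that value of Ptx1 at cycle 13 was the largest in size. Of the 6 sites at the 5 stages, 4 values fell outside the range of the other 51 regions. They were Rexo5 (−0.75) and Ptx1 (−0.71) at cycle 11, where the others went down to −0.70, and Ptx1 (−0.91) and not (−0.89) at cycle 13, where they went down to −0.75. The other 51 regions set that range themselves, so none of them can lie beyond it, and the count was not tested.

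**Figure D2:**
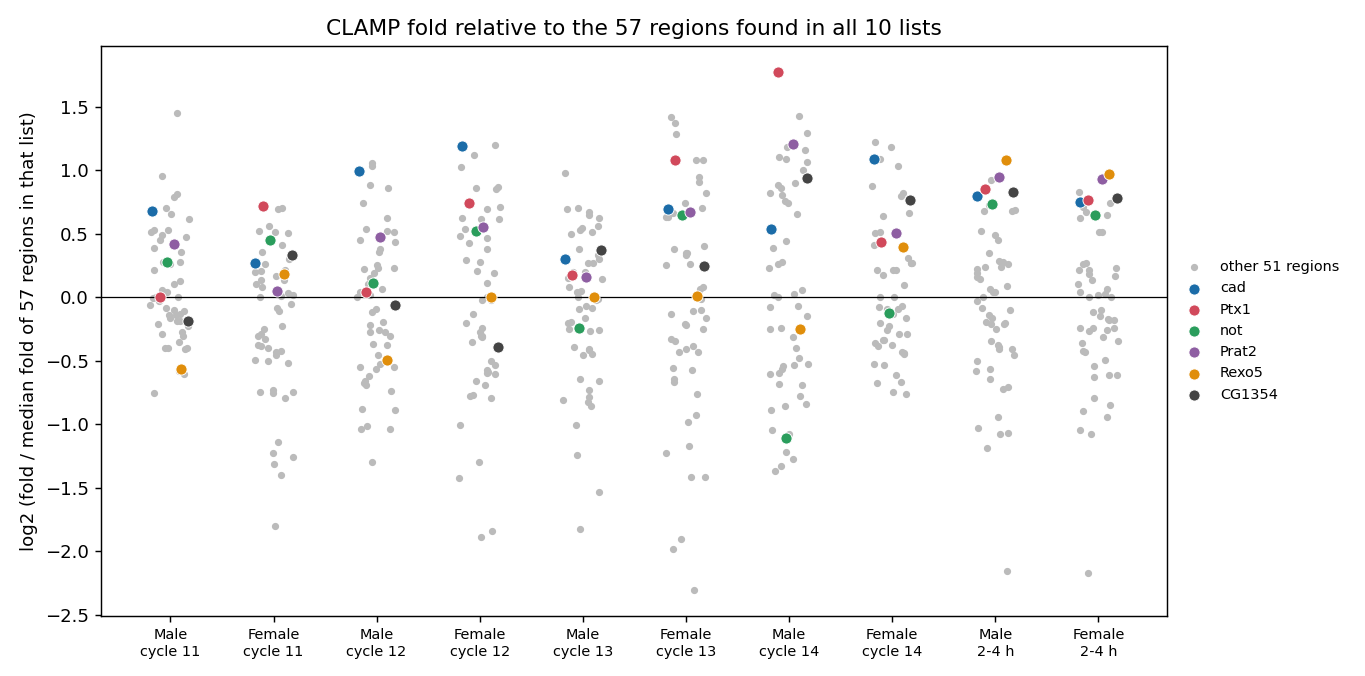
CLAMP fold divided by the median fold of the 57 shared regions of the same list, on a log2 scale (vertical axis), for each list (horizontal axis, male left of female at each stage). Coloured points are the 6 sites and grey points the other 51 regions. cad, Ptx1 and Prat2 lie above 0 in all 10 lists, as do some of the other regions, and Ptx1 is the highest point at male cycle 14.

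The choice required overlap with the male 2-4 h region in every list, which bounds how far a summit can lie from it. In the 9 other CLAMP lists 1 summit was taken per site and list, the one nearest to the male 2-4 h summit. At the 6 sites it was also the one of highest fold. All 54 of these lay within 100 bp of the male 2-4 h summit, and 51 within 20 bp, with a median distance of 8.5 bp. A weaker summit in the cad region of male cycle 13, at 529 bp with a fold of 2.45, was thus left out. Among the other 51 shared regions 93.9% of 459 summits lay within 100 bp and 59% within 20 bp. The 6 regions had 1 summit each at male 2-4 h, as did 45 of the 57. Offsets of the summits taken ran from −10 to 20 bp at Rexo5, −8 to 19 at not, −19 to 8 at CG1354 and −25 to 9 at cad. A negative value means a lower coordinate. Of the 54 summits, the 3 beyond 20 bp were Ptx1 at male cycle 11 (−63 bp), Prat2 at male cycle 14 (71 bp) and cad at male cycle 14 (−25 bp). Without the male cycle 14 list, all 48 remaining summits lay within 100 bp. The median width of the 6 regions was smallest at male cycle 11, 276.5 bp (204 to 418 bp), and was 609.5 bp (509 to 676 bp) at male 2-4 h; at not the narrowest region, 276 bp, was that of male cycle 14.

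**Figure D3:**
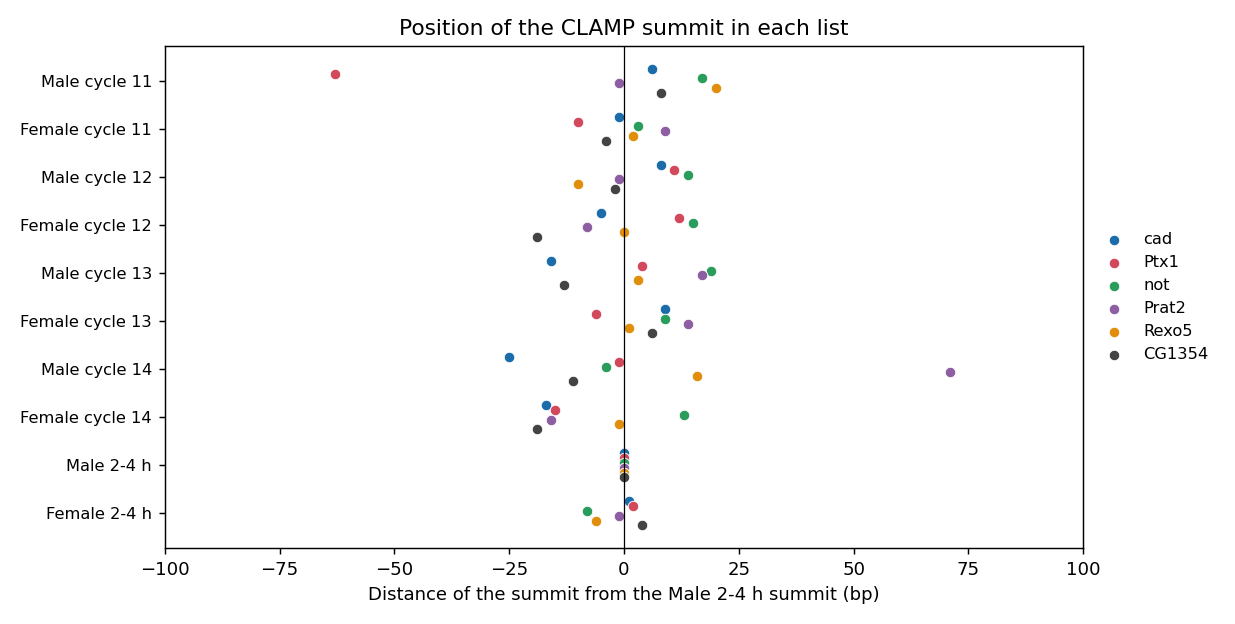
Distance in bp of the highest CLAMP summit from the male 2-4 h summit (horizontal axis) in each list (rows, male above female at each stage), with 1 point per site. Of the 54 points outside the male 2-4 h row, 51 fall within 20 bp of 0, and Ptx1 at male cycle 11 and Prat2 at male cycle 14 stand out at −63 and 71 bp.

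Summits within 300 bp of the next were taken as 1 place. Within 10 kb, CLAMP regions that did not overlap the 6 sites held 19 further places with a summit. Of these, 13 appeared in 1 list, 7 of them in male cycle 14 alone, and 5 appeared in 4 or more lists. Among those 7, the region at 962 bp inside cad also overlapped the male cycle 13 region of the cad site itself, which was left out here. The most frequent places were inside cad, at 6467 bp from its main summit, and over MYPT-75D, a myosin phosphatase subunit gene, at 9721 bp from the not summit, both in 7 lists. The place inside cad had folds of 6.43, 4.81 and 12.6 in males at cycles 13, 14 and 2-4 h. In females it had 6.94, 4.55, 7.08 and 7.89 at cycles 11, 12, 13 and 2-4 h. It was missing from male cycles 11 and 12 and female cycle 14, the 3 shortest lists.

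The place over MYPT-75D had folds of 5.95, 13.4 and 12.3 in males at cycles 13, 14 and 2-4 h. In females it had 6.34, 3.35, 7.01 and 9.41 at cycles 11, 12, 13 and 2-4 h. At male cycle 14 it was stronger than the not site itself, 13.4 beside 5.48. Another place over MYPT-75D, at 7705 bp, appeared in 5 lists with folds from 2.90 to 5.43. One at −3356 bp from the Ptx1 summit appeared in 4 lists (2.22 to 4.25), and one at −1868 bp from the cad summit in 4 lists (1.93 to 4.54). CG1354, Rexo5 and Prat2 had no other place found in more than 1 list.

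The male cycle 14 list held strong regions near cad and Ptx1 at places counted in that list alone. A region with a fold of 22.5 at −5757 bp from the cad summit, over dia, a formin gene, exceeded the fold at the cad site in that list, 17.1. It overlapped no region of the other 9 CLAMP lists, 1 H4K16ac region and 1 MSL3 region, both of male cycle 13. A region with a fold of 14.4 inside Ptx1, at 3678 bp, also overlapped no other CLAMP region; it overlapped male H4K16ac of cycles 13 and 14 and male MSL3 of cycle 13. Another, inside cad at 962 bp with a fold of 7.73, overlapped H4K16ac and MSL3 of male cycle 13 among others. It also overlapped the male cycle 13 CLAMP region of the cad site itself. Without the male cycle 14 list, 12 of the 19 places were left.

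**Figure D4:**
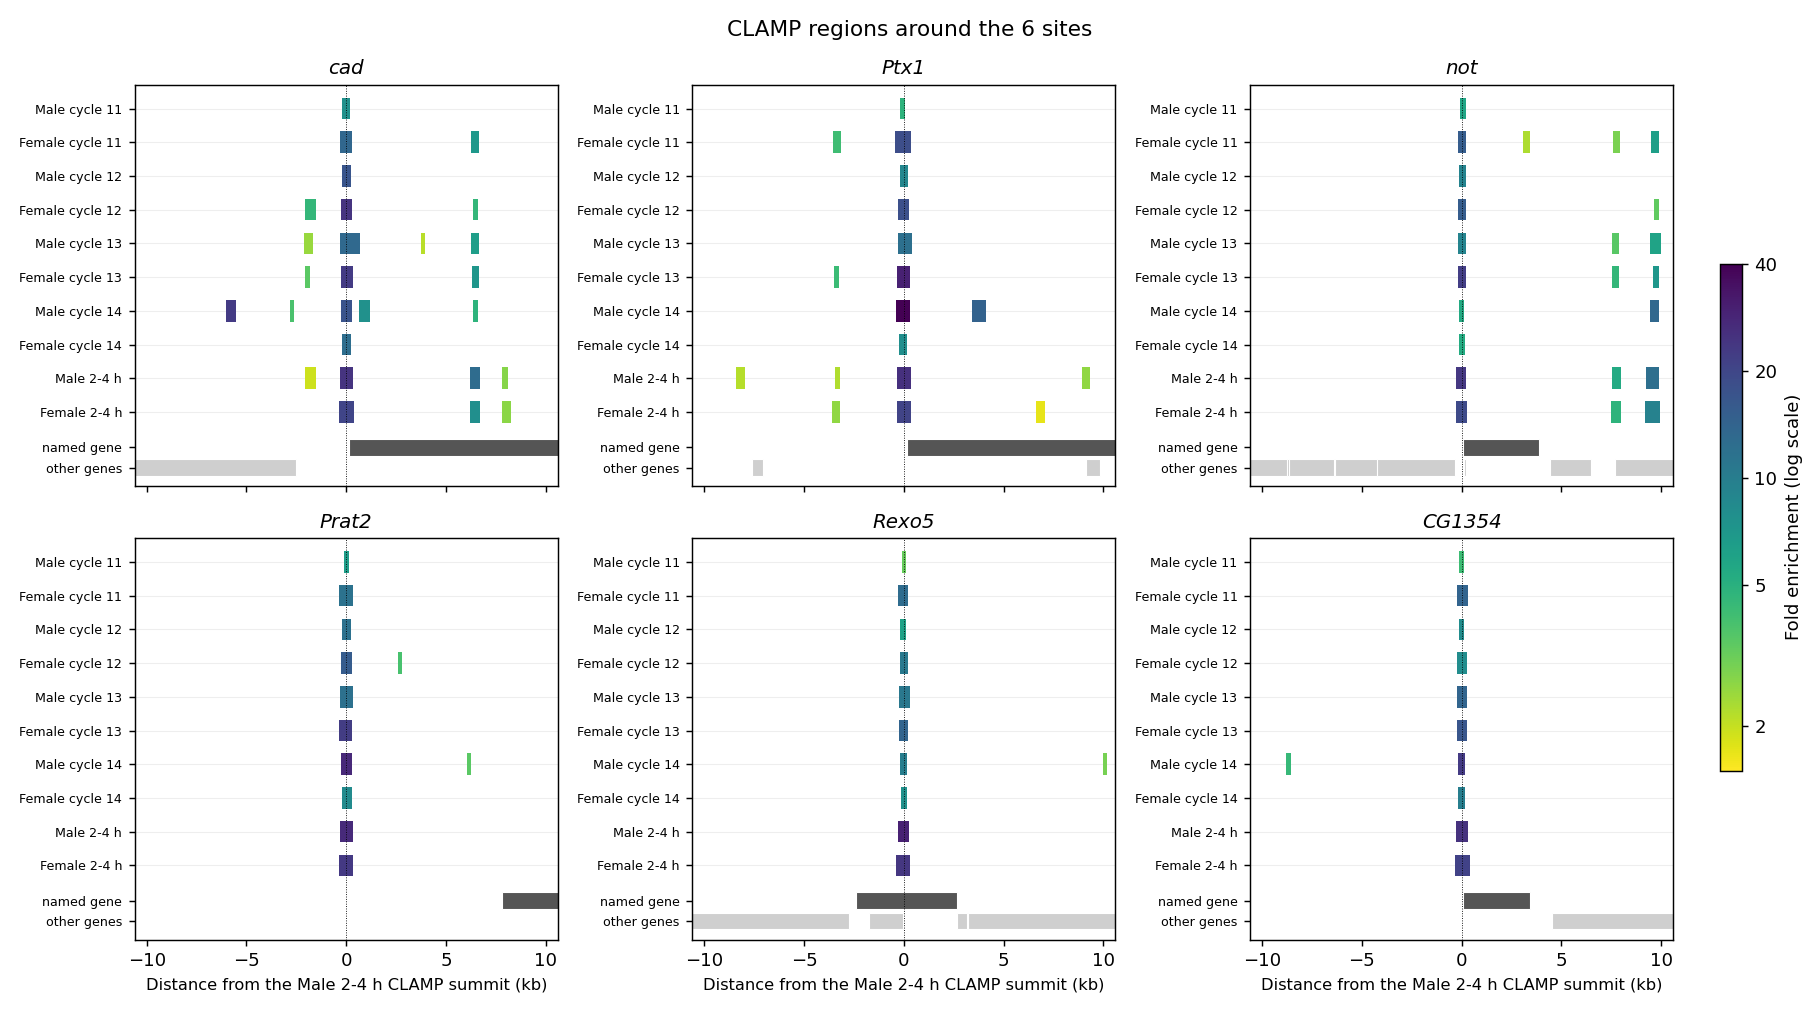
CLAMP regions within 10 kb of the 6 sites, drawn to scale by distance from the male 2-4 h summit in kb (horizontal axis), 1 row per list with male above female at each stage; colour gives fold enrichment on a log scale, dark bars below mark the named gene and light bars other genes. A region stands at 0 in all 10 rows of every panel, and cad and not have a further place in 7 rows each, at 6467 and 9721 bp.

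H4K16ac overlapped the CLAMP region in 19 of 60 pairs of site and H4K16ac list. CG1354 accounted for 9 and Rexo5 for 8, and Ptx1 and cad had 1 each, both at male 2-4 h. The sites at not and Prat2 had none. The cad pair rests on a few bases, since the male region ran from 322 to 1066 bp and the CLAMP region ended at 330 bp. The female 2-4 h region covered nearly the same place, from 337 to 958 bp, and was not counted. At Rexo5 the male cycle 13 region began at 279 bp, the last base of the CLAMP region. Male H4K16ac of cycle 11 overlapped 0 of the 6 sites, beside 8.54% of all male 2-4 h CLAMP regions and 19.3% of the 57 shared ones. Male cycle 12 overlapped 2 (35.4% of all and 28.1% of the shared), male cycle 13 also 2 (25.1 and 14%), male cycle 14 again 2 (45 and 24.6%) and male 2-4 h 4 (56.8 and 43.9%). Female cycle 11 overlapped 1 (36.4% of all and 31.6% of the shared), female cycle 12 had 2 (37.6 and 28.1%), female cycle 13 also 2 (41.2 and 22.8%), female cycle 14 again 2 (38.7 and 17.5%) and female 2-4 h 2 (57.4 and 40.4%). With 6 sites, no departure from these shares can be read.

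At CG1354 the mark began within 100 bp of the CLAMP summit and reached into the gene. Male H4K16ac regions there started between −20 and 73 bp from the summit, at all stages but cycle 11, where none was listed. They ended at 451, 541, 4703 and 4612 bp at cycles 12, 13, 14 and 2-4 h, with folds of 3.44, 3.22, 2.95 and 2.11. Female regions started between −28 and 98 bp and ended at 2801, 599, 723, 3019 and 2051 bp in stage order, with folds of 2.78, 3.80, 4.05, 3.41 and 3.51. The gene ends 3404 bp from the summit, so in males at cycle 14 and 2-4 h the region ran past it, and the female regions that began at the summit ended inside it. Female cycle 11 had 2 more regions beyond the gene, from 3692 to 4052 bp and from 5648 to 5852 bp.

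At Rexo5 H4K16ac overlapped the CLAMP region in 8 lists, lying on the higher-coordinate side of the summit in 6 and across it in 2. These male regions ran from 191 to 577 bp, 279 to 596 bp, 105 to 739 bp and −582 to 822 bp at cycles 12, 13, 14 and 2-4 h. Female regions ran from −381 to 442 bp, 116 to 641 bp, 154 to 703 bp and 17 to 806 bp at the same stages. Neither sex had one at cycle 11. Their folds were 2.49, 3.12, 3.52 and 3.06 in males and 2.98, 2.97, 3.33 and 3.69 in females. Further H4K16ac lay outside Rexo5, over ndl, a serine protease gene, from −5963 to −5377 bp at male cycle 14, −5876 to −5335 bp at male 2-4 h and −6072 to −5736 bp at female cycle 14.

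At not the mark stood away from the CLAMP site, across the far end of not and the start of the interval of bora, an activator gene of the Aurora A kinase. The male regions there ran from 3166 to 5228 bp, 2445 to 5094 bp, 3227 to 5513 bp and 3171 to 5161 bp at cycles 12, 13, 14 and 2-4 h. Female ones covered the same place at all 5 stages, from 3318 to 4634 bp at cycle 11 and 3155 to 5090 bp at 2-4 h. Male cycle 11, where that list has 1201 regions, was the exception. Further regions lay over MYPT-75D, from 9442 to 10462 bp at male cycle 13, 7834 to 8419 bp at male cycle 14 and 6937 to 7996 bp at female cycle 13. Both 2-4 h lists also had one on the other side, over CG4174, CG13380 and CG32201, from −8742 to −6661 bp in males and −8487 to −7362 bp in females.

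At Ptx1 no female list had H4K16ac within 10 kb, and males had it inside the gene, from 2913 to 4176 bp at cycle 13 (fold 7.99), from 3571 to 3869 bp at cycle 14 (1.95) and from 186 to 612 bp at 2-4 h (1.63). The median fold of all regions in those 3 male lists was 3.96, 2.29 and 1.70. The cycle 13 and 14 regions at Ptx1 are those that the additional male cycle 14 CLAMP region overlapped. At cad, males had regions in 4 lists, the strongest at cycle 13 (−5954 to −5540 bp over dia, fold 12.3, and 570 to 1146 bp, 7.29), and females in 3. Neither sex had any at cad at cycle 14. The Prat2 site had no H4K16ac within 10 kb in any of the 10 lists, as did 6.62% of all male 2-4 h CLAMP regions.

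The share of the window of 10 kb on either side that H4K16ac covered, over every gene in it, was compared between the sexes, with the 5 stages as pairs. CG1354 had 0, 1.84, 2.67, 22.5 and 22.5% in males in stage order and 15.9, 2.72, 3.31, 14.5 and 10.1% in females. Females were thus higher at cycles 11 to 13 and males at cycle 14 and 2-4 h. The mean male minus female difference was 0.602 percentage points (SD 10.8, n = 5; exact sign-flip test, two-sided, p = 1). For not the covers were 0, 10.1, 16.8, 14.0 and 19.9% in males and 6.42, 12.1, 15.5, 11.7 and 14.9% in females, again with females higher at cycles 11 and 12 and males later.

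For Rexo5 the covers were 0, 1.88, 1.54, 5.93 and 9.46% in males and 0, 4.00, 2.55, 4.31 and 3.84% in females. cad had 2.49, 17.7, 4.81, 0 and 6.93% in males and 8.28, 3.85, 0, 0 and 6.53% in females. The mean difference was 2.65 points at cad (SD 7.29), 1.92 at Ptx1 (SD 2.51), 0.823 at Rexo5 (SD 3.01) and 0.022 at not (SD 4.37), each over n = 5 stages, with exact sign-flip p of 0.625, 0.25, 0.75 and 1. Males were higher at 3, 3, 2 and 3 of the 5 stages, and females at 1, 0, 2 and 2. None of the 6 genes passed, with 0 also at an unadjusted p under 0.05, but 5 stages cannot give an exact p below 0.0625. After Benjamini-Hochberg adjustment over the 6 genes every p was 1. A stage with equal cover in the sexes adds nothing to the test, so cad, Ptx1 and Rexo5 had a higher floor. At Ptx1 the 3 stages with a difference were all higher in males, so the sign-flip p of 0.25 was the lowest it could give. Prat2 had no cover in either sex, so its test could not pass. Over all 10466 male 2-4 h CLAMP regions the mean cover was 1.18, 7.73, 8.58, 18.0 and 17.0% in males and 10.7, 8.94, 12.9, 12.1 and 14.9% in females. There too females were higher at cycles 11 to 13 and males at cycle 14 and 2-4 h, so the order of the sexes at CG1354 is that of this background. It pools X and autosomal regions, and the H4K16ac cover of X regions alone is not given here.

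MSL3, read in males alone, had no region within 10 kb of any of the 6 sites at cycles 11 and 12 (0.697 and 0.736% of all male 2-4 h CLAMP regions had one). At cycle 13, where the list has 15149 regions, all 6 sites had MSL3 within 10 kb, beside 90% of all regions. At cycle 14 and at 2-4 h CG1354 was the 1 site of 6 with MSL3, beside 26 and 12.6%. Among X regions alone the shares were 1.04, 3.27, 84.5, 57.9 and 39.8% in stage order, and on 2L, 2R, 3L and 3R together 0.539, 0.0719, 92.8, 18.8 and 6.36%. From 1 X-linked and 5 autosomal sites no departure from those shares can be read.

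At CG1354 the MSL3 region ran from 1845 to 2971 bp, 270 to 4515 bp and 798 to 2916 bp from the CLAMP summit at cycles 13, 14 and 2-4 h, with folds of 3.19, 3.47 and 3.21. The cycle 13 and 2-4 h regions had a −log10 q under 5, and so did every MSL3 region at the autosomal sites. The cycle 14 region lay within the span of male H4K16ac of that stage, 69 to 4703 bp. The MSL3 regions at the autosomal sites at cycle 13 were 6 near Rexo5, 4 each near Ptx1 and not, 2 near cad and 1 near Prat2, with folds between 2.38 and 3.48. One of them overlapped a CLAMP site, at Ptx1 (−376 to 286 bp, fold 2.48). At cad the 2 regions, from −5993 to −4156 bp and from 602 to 1131 bp, overlapped the 2 places where male cycle 13 H4K16ac was strong.

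**Figure D5:**
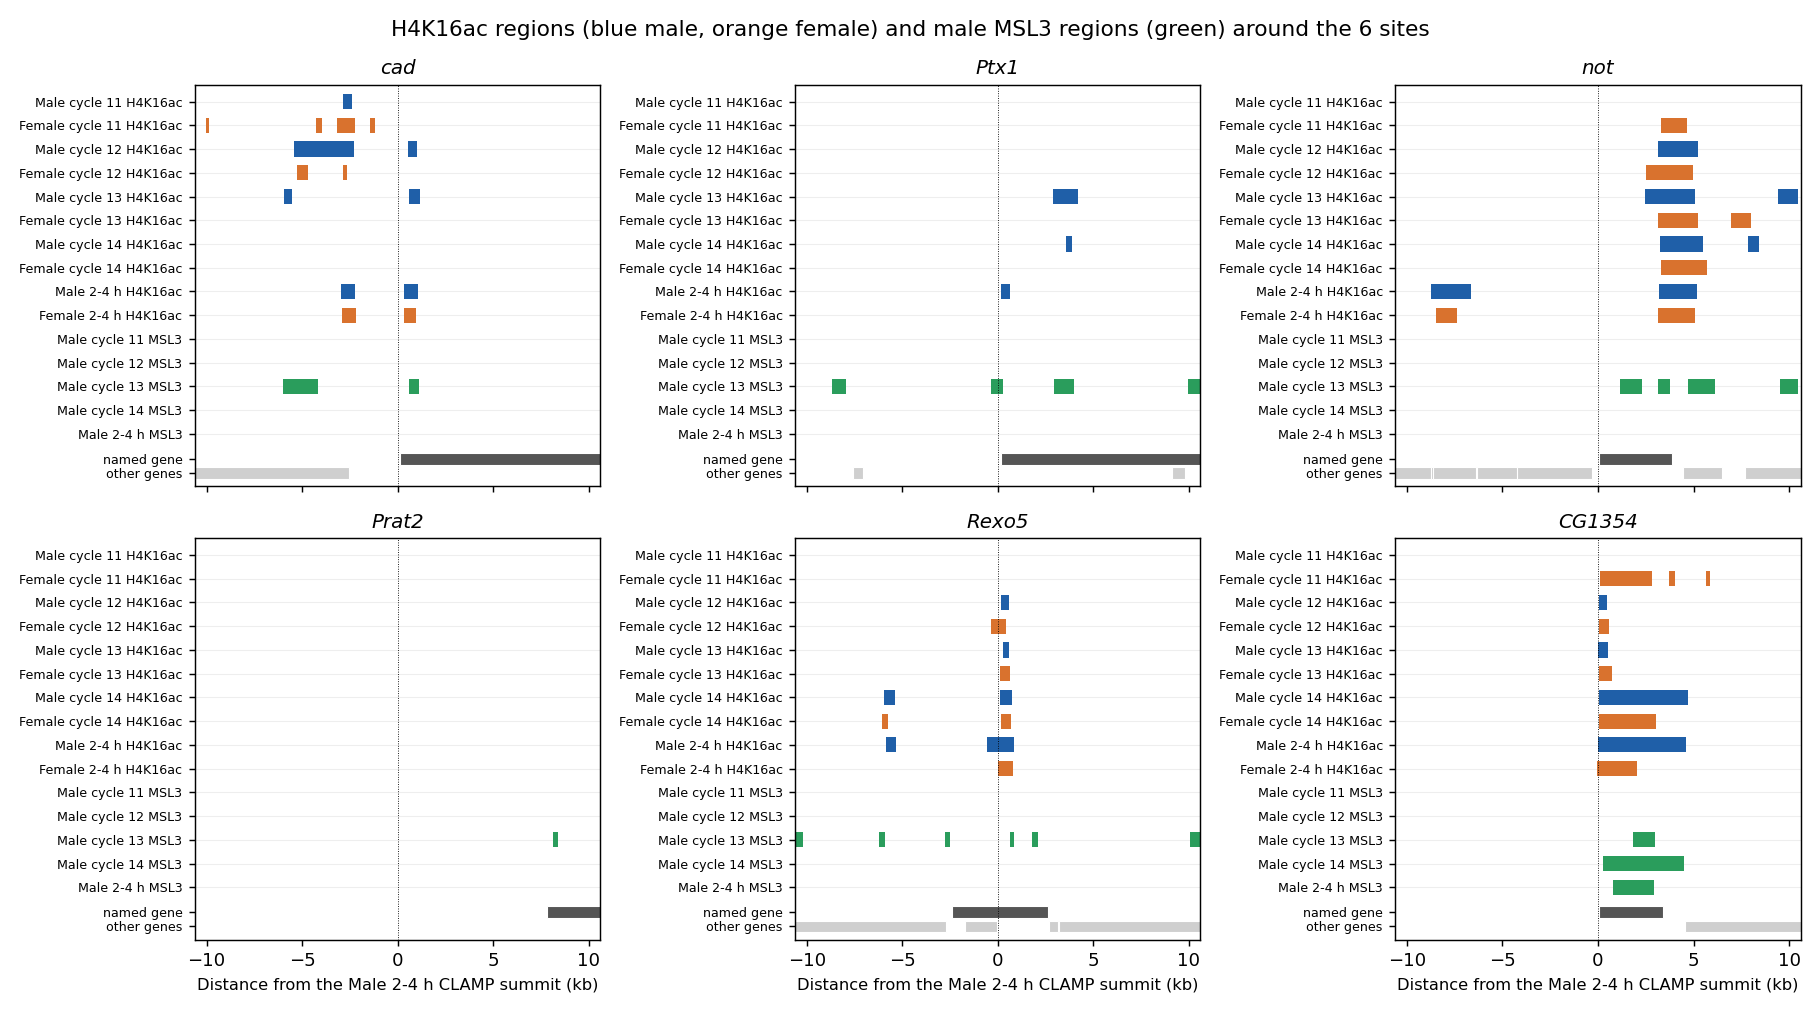
H4K16ac regions of males (blue) and females (orange) and male MSL3 regions (green) within 10 kb of the 6 sites, drawn to scale by distance from the male 2-4 h CLAMP summit in kb (horizontal axis), 1 row per list with male above female at each stage; dark bars mark the named gene and light bars other genes. CG1354 has H4K16ac from the summit onward in 9 of 10 rows and MSL3 at cycles 13, 14 and 2-4 h, and Prat2 has no H4K16ac.

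Other genes of related function were read as lists, counting the CLAMP lists with a region within 1 kb of the gene. CLAMP was there in all 10 lists at 0.494% of 13962 protein-coding genes and in at least 5 at 22.7%, and the median gene had it in 2. These lists include the members, whose place is not evidence. Of 14 paired-class homeobox genes, 12 had CLAMP in at least 5 lists, with a median of 8, and 2 in all 10, Ptx1 and oc, the orthodenticle gene of head development. Of 11 maternal and posterior patterning genes, 10 had it in at least 5 lists, with a median of 8, and 2 in all 10, cad and the pair-rule gene ftz. The gap genes gt (9 lists), kni (8), Kr (7) and hb (6) and the pair-rule gene eve (9) were among the 10, and tor, the terminal receptor gene, had CLAMP in none.

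Of the 4 genes of the SAGA deubiquitinase module, not had CLAMP in 10 lists, Atxn7 in 8, Sgf11 in 2 and e(y)2 in none. Of 8 purine synthesis genes, 3 had it in at least 5 lists, namely Adss (8), Paics (7) and CG11089 (6), while Prat, the other gene of the same enzyme, had it in 3 and Prat2 in none. Of 9 genes of the RNA exosome and ribosomal RNA processing, Rexo5 (10) and Dis3 (5) had it in at least 5, and the median was 2, that of all genes.

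The shared region whose ranks over the 10 CLAMP lists were most like those of a member was found by the mean absolute difference in rank, in percent of the list. For Ptx1 it lay over trh, a tracheal regulator gene (1.68 points), for Prat2 nearest to lncRNA:CR45297 (1.56) and for cad over Src64B and HDAC1 (1.38). For CG1354 and Rexo5 it lay over grn, a GATA factor gene (2.99 and 5.83), and for not over abd-A, a Hox gene (5.48). The value for not rests in large part on male cycle 14. There the not region ranked 2917 of 8393, and abd-A had a fold of 15.4, far above that of not. The differences were not computed without that list. The median difference to the other 56 regions was 7.70 for Ptx1, 7.26 for Prat2, 8.40 for cad, 9.26 for CG1354, 12.6 for Rexo5 and 10.7 for not.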

How the data were processed

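Members and gene lists were chosen with earlier results of these data known. The submitters' processing notes name Bowtie2, Picard, SAMtools 1.9, MACS2 2.1.1 and dm6 but give no settings; the control library and any pooling of replicates are not given in the sources used here. The fold in each peak list is a ratio over local background deposited by the authors, with no scaling between lists. The authors also deposited, for every peak, its −log10 p-value, its −log10 q-value and a score derived from the q-value; the p-value and score were not used. Summits (CLAMP) were deposited as offsets from the region start. A region was counted once, with the highest fold of its summits. Positions are 1-based. Genes came from the RefSeq table of Release 6, which holds no strand, exons or sequence; 46 of 47 list genes matched. Depth per sample was unknown, so no counting interval is given. Named genes are the members, regions next to the threshold, the most alike region of each member, list genes and genes under regions within 10 kb. Interval counts were tested on simulated regions against base-by-base counts. Python 3.11.15, pandas 2.3.3 and matplotlib 3.10.9 were used. Alternatives covered overlap, −log10 q, window, summit rule and lists left out. P-values of the H4K16ac cover come from exact sign-flip tests over stages.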

Additional observations from a re-analysis of the deposited data

How the results depend on the processing

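Of 17 recomputed counts, 13 stayed within 1.5 times the reported one. Of 18 recomputed mean differences in H4K16ac cover, 15 kept their sign (the 3 at Prat2 are 0 throughout); their size moved, to 0.104 points at Rexo5 and 3.73 at Ptx1 in the window of 5 kb, and no setting could reach p under 0.0625. With at least 50% of the region covered, 13 regions instead of 57 were shared by all 10 CLAMP lists, and 2 of the 6 members, cad and not, remained, the other 4 being lost at male cycle 11, and Rexo5 and CG1354 also at male cycle 12. Without the male cycle 11 list 253 regions were shared. With −log10 q of at least 5, 48 regions and 5 members remained (Rexo5 was lost at male cycle 11), and MSL3 within 10 kb fell to 1 pair of site and list from 8, CG1354 at cycle 14. Without the male cycle 14 list, an alternative chosen after seeing the data, 61 regions were shared. The members stood in the top 10% of their list by fold in 45 of 54 pairs, and in 40 of 48 without male cycle 14. This largely follows from their choice: 9.99% of all regions and 59.9% of 459 pairs of the other 51 shared regions stood there. The mean male minus female H4K16ac cover at CG1354 turned to −7.96 points in the gene body, and at not to −1.98 in the window of 5 kb and −2.37 in the gene body; the cause was not tested. No paired analysis was possible because each group has 1 list, so replicate numbers can pair or leave out nothing; the H4K16ac cover was paired by stage instead.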
